A study of Mus musculus with 6 samples.

Results

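Nuclear receptors are transcription factors that carry their own sensor for small lipophilic molecules, and coregulators are the proteins that they recruit to raise or lower transcription. The set described here holds 34 genes of the 34652 in the expression table: 25 nuclear receptors and 9 coregulators. It was chosen by gene symbol, with earlier results of these data known. The cells were macrophages of the cerebrospinal fluid (CSF) of mice with leptomeningeal metastasis, the spread of a carcinoma to the membranes around the brain. LLC-LeptoM cells, a lung carcinoma line adapted to grow in the leptomeninges, had been inoculated 12 days earlier. All animals were Cx3cr1CreER:mTmG mice given tamoxifen, in which Cre activity switches a membrane reporter to green fluorescent protein (GFP). The switch depends on activity of the Cx3cr1 promoter while tamoxifen is present, so GFP marks descent from cells that expressed Cx3cr1 at that time. The dLAM group, labelled resident macrophages, was sorted as GFP+, Ly6C- cells that carried CD45, CD11b and F4/80, and had 3 libraries. The Mono-MΦ group, labelled monocyte-macrophages, was a mixture of a pair of GFP- fractions, 1 with F4/80 and 1 with low F4/80 and Ly6C, and also had 3 libraries. The sources used here give no age, sex, time of tamoxifen or pooling of animals. The comparison asks how the RNA levels of these genes differ between resident and monocyte-derived macrophages in the same fluid.

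In the unliganded state many receptors of this family sit on DNA with corepressors such as Ncor1, and a ligand exchanges these for coactivators of the Ncoa family. In macrophages the liver X receptors respond to oxysterols and govern cholesterol export, the peroxisome proliferator-activated receptors (PPARs) respond to fatty acids, and the glucocorticoid receptor restrains inflammatory genes. The Nr4a receptors work without a known physiological ligand and are controlled mainly by how fast their genes are transcribed after a stimulus.

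Estimated depth was between 1.23e+07 and 1.48e+07 fragments in the dLAM libraries and between 1.37e+07 and 1.70e+07 in the Mono-MΦ libraries. Values are FPKM, fragments scaled by gene length and library total, so levels can be set side by side between genes. Macrophage markers summed to 1040 to 1360 FPKM in dLAM libraries and 360 to 456 FPKM in Mono-MΦ libraries, with 6 of 10 genes higher in dLAM. The test needed 1 FPKM in at least 3 libraries, and 1 of the 10 genes reached this level only in dLAM libraries. Of the other 9, 5 were higher. The largest part of the dLAM sum was C1qa, with 410 to 571 FPKM in dLAM libraries and 5.20 to 9.21 FPKM in Mono-MΦ libraries. Of the 4 that did not pass, Itgam and Ptprc lay below in every dLAM library (limma adjusted p = 0.101 and 0.121). Cd68 and Fcgr1 overlapped between the groups. Monocyte markers summed to 260 to 392 FPKM in dLAM libraries and 2070 to 3680 FPKM in Mono-MΦ libraries, with 6 of 6 lower in dLAM. Markers of other cells also moved with the groups. T cell markers summed to 198 to 240 FPKM in dLAM libraries and 5.7 to 31.2 FPKM in Mono-MΦ libraries, with 12 of 12 higher in dLAM. Of these, 2 reached 1 FPKM only in dLAM libraries. Conventional dendritic cell markers summed to 148 to 216 FPKM in dLAM libraries and 16.3 to 19.5 FPKM in Mono-MΦ libraries, with 9 of 10 higher in dLAM. However, 6 of the 10 reached 1 FPKM only in dLAM libraries, and of the other 4 genes 3 were higher. Mast cell markers summed to 41.4 to 86.0 FPKM in dLAM libraries and 0.423 to 1.39 FPKM in Mono-MΦ libraries, where 4 of the 6 were listed at 0 in every library. Carcinoma markers summed to 26.9 to 31.6 FPKM in dLAM libraries and 1.74 to 2.92 FPKM in Mono-MΦ libraries, with 3 of 6 genes higher in dLAM and the other 3 under 1 FPKM in every library. Among the 3 that were higher, 2 reached 1 FPKM only in dLAM libraries. Most of the dLAM sum was Cdh1, with 21.01 to 22.01 FPKM in dLAM libraries. In Mono-MΦ libraries Cdh1 had 1.388 to 2.204 FPKM. The 3 genes under 1 FPKM were Krt8, Krt19 and Cldn4, and none of them exceeded 0.4907 FPKM. Whether the RNA of these markers came from carcinoma cells was not tested. Sums for B cells were 9.49 to 15 FPKM in dLAM libraries and 1.03 to 2.31 FPKM in Mono-MΦ libraries, and sums for NK cells were 8.38 to 15.3 FPKM in dLAM libraries and 1.52 to 2.69 FPKM in Mono-MΦ libraries. Neutrophil markers ran the other way, with 938 to 1170 FPKM in dLAM libraries and 1410 to 8100 FPKM in Mono-MΦ libraries, and 4 of 8 were lower in dLAM. Much of that sum was S100a9, with 559 to 715 FPKM in dLAM libraries and 754 to 4454 FPKM in Mono-MΦ libraries. Among the 4 that did not pass, Ly6g and Cxcr2 overlapped between the groups (limma adjusted p = 0.585 and 0.493). Meningeal fibroblast markers were low, with sums of 2.74 to 4.46 FPKM in dLAM libraries and 0.305 to 0.69 FPKM in Mono-MΦ libraries. The dLAM libraries lay above for 5 of 5 genes, but all 5 were too low to be tested. No share over other genes as low was computed. The part of these cells in the results below was not tested, and in bulk RNA fewer cells of a type and less RNA per cell cannot be told apart. Summed Y-linked RNA was 23.5 FPKM in dLAM library 3 and 26.1 FPKM in Mono-MΦ library 2, against 3.31 to 5.50 FPKM in the other 4 libraries, so both groups held a library that stood apart in this.

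Of the 34 genes, 29 reached 1 FPKM in at least 3 of the 6 libraries and were tested with limma on log2(FPKM + 1), with p-values adjusted over all 11317 genes tested. Transcripts of 8 genes rose in dLAM: the receptors Nr4a3, Pparg, Nr1d2, Nr1h3 and Vdr, and the coregulators Nrip1, Ncoa5 and Ncoa3. The receptor Rara and the coactivator Ncoa1 fell. The other 19 did not pass. Across all genes tested 30.5% passed in either direction, 19.9% as higher and 10.6% as lower, and the 10 genes that passed here were 34.5% of the 29, a share near that background and thus no result about the set. Its median log2 fold change was 0.12, beside 0.06 for all genes tested. Nr1h3 and Pparg passed the filter only through dLAM libraries, where they were high, so these counts support nothing about the set. Among the 27 genes that passed it in both groups 6 rose and 2 fell, which is 29.6%, with a median of 0.08. No share over all genes that passed it in both groups was computed to set beside this. Without dLAM library 2 the count of members that rose was 3 and of those that fell 1, and without dLAM library 1 these counts were 5 and 0. In the 4 libraries with less Y-linked RNA, 5 rose and 1 fell, and the calls lost were Ncoa3 (adjusted p = 0.127), Nr1d2 (0.118), Nr1h3 (0.0519) and Rara (0.154). Over all genes 2249 were higher and 1204 lower, and without dLAM library 2 the lower count was 780. The higher genes were 65.1% of all calls, but 51.9% after median-of-ratios scaling and 52.8% after quantile normalization.

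**Figure D1:**
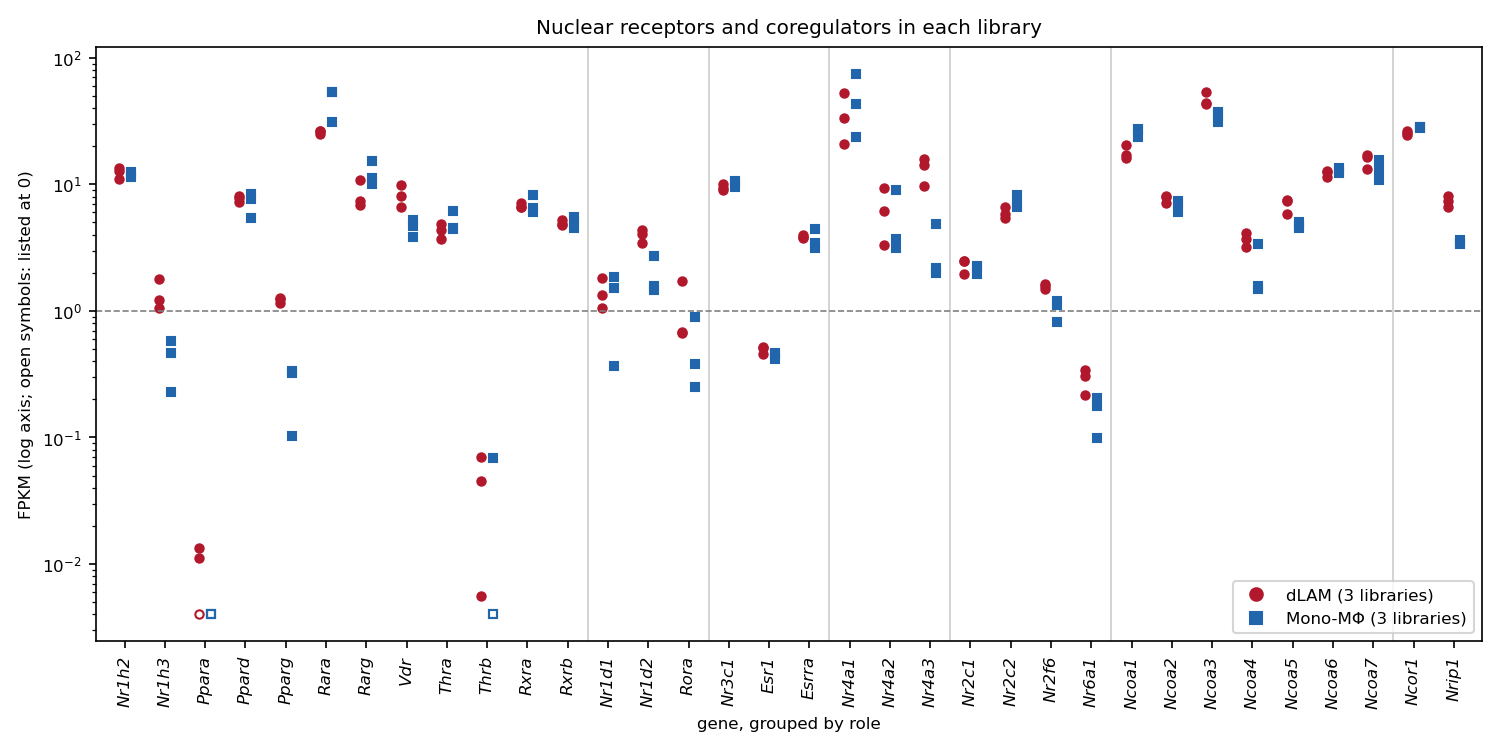
FPKM of each of the 34 genes in every library on a log axis, with circles for the 3 dLAM libraries, squares for the 3 Mono-MΦ libraries and open symbols at the bottom for values listed at 0. The dashed line is at 1 FPKM. The most abundant genes, Ncoa3, Nr4a1, Rara and Ncor1, lie above 20 FPKM in every library, while Ppara and Thrb stay under 0.1 FPKM.

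**Figure D2:**
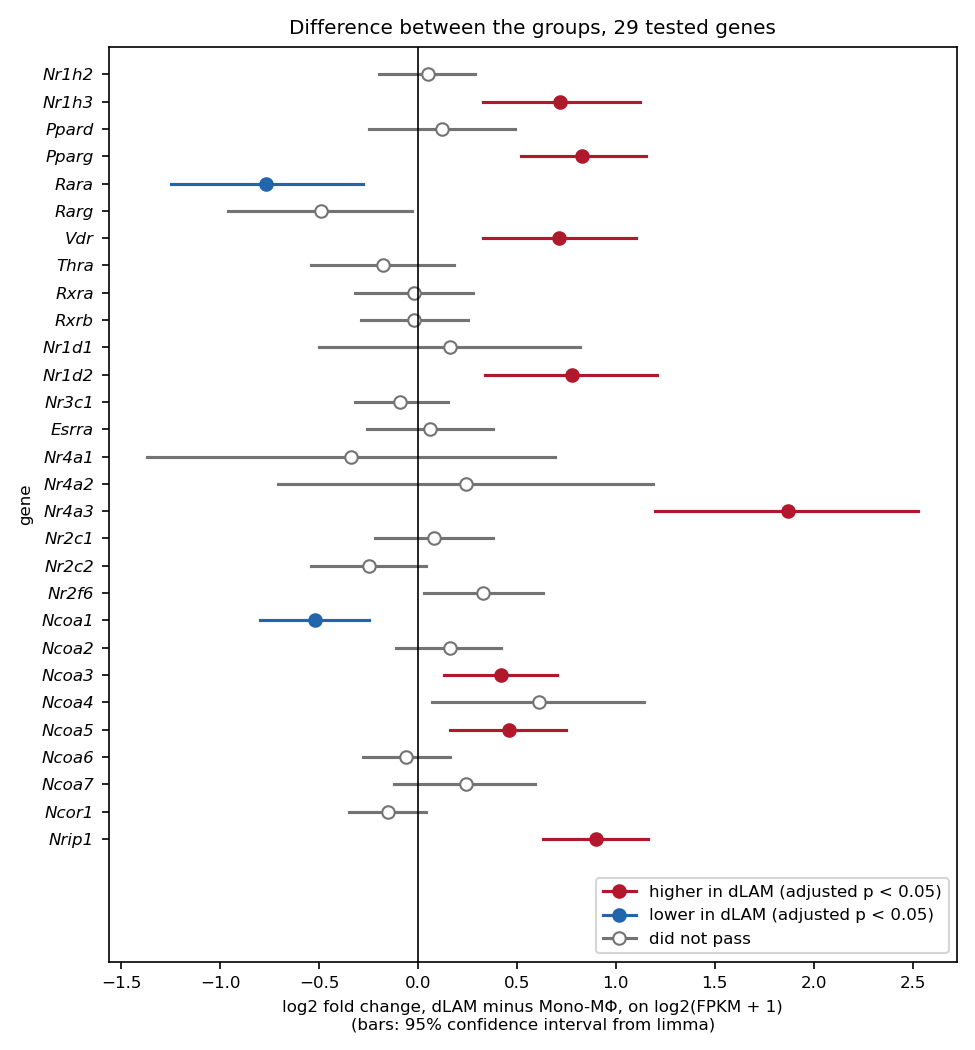
The log2 fold change, dLAM minus Mono-MΦ on log2(FPKM + 1), of the 29 tested genes with its 95% confidence interval from limma. Nr4a3 lies farthest to the right at 1.87 and Rara farthest to the left at -0.77.

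The 3 dLAM libraries lay entirely above or entirely below the 3 Mono-MΦ libraries for 13 of the 29 tested genes, 9 above and 4 below. Of all genes tested 46.2% were apart in this way, 29.3% above and 16.9% below, so this too is near the background. Levels spanned a wide range within each group. In dLAM the highest mean was that of the coactivator Ncoa3, 46.8 ± 5.64 FPKM, followed by Nr4a1 at 35.7 ± 15.9 FPKM, whose libraries overlapped those of Ncoa3 (SD, n = 3 libraries, here and below). Rara at 25.9 ± 0.740 FPKM and Ncor1 at 25.4 ± 0.925 FPKM came next and did not differ beyond their spread. In Mono-MΦ the highest means were Nr4a1 at 47.2 ± 25.5 FPKM and Rara at 46.2 ± 13.3 FPKM, which overlapped, and then Ncoa3 at 34.7 ± 3.39 FPKM and Ncor1 at 28.3 ± 0.194 FPKM. Nr4a3 stood seventh of these genes in dLAM at 13.2 ± 3.15 FPKM, and at 3.03 ± 1.62 FPKM it was in place 22 in Mono-MΦ.

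The Nr4a receptors, Nr4a1 (Nur77), Nr4a2 (Nurr1) and Nr4a3 (Nor1), are immediate early genes, and Nr4a1 is needed for the Ly6C-low monocytes of mouse blood. Their upstream sequences are shown because Nr4a3 passed the test here and its paralogs did not, although the 3 genes are known to answer many of the same stimuli. Each line gives the 250 bases before the start of the RefSeq transcript on build GRCm38.p6, 5′ to 3′ on the gene's strand. Capitals mark TGACG or its reverse complement CGTCA, the core of the cAMP response element. The windows lie at chr4:48045055-48045304 (plus strand) for Nr4a3, chr15:101266596-101266845 (plus strand) for Nr4a1 and chr2:57124004-57124253 (minus strand) for Nr4a2.
Nr4a3: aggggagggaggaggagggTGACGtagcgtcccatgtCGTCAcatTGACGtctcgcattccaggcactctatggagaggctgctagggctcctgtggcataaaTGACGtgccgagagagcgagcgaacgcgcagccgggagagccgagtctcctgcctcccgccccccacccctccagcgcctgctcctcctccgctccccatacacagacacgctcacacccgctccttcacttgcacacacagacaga
Nr4a1: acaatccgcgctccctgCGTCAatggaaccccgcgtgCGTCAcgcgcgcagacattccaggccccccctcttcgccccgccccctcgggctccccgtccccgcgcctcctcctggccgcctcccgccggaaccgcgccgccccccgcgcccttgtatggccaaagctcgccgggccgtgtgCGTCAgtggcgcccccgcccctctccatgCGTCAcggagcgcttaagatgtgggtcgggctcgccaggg
Nr4a2: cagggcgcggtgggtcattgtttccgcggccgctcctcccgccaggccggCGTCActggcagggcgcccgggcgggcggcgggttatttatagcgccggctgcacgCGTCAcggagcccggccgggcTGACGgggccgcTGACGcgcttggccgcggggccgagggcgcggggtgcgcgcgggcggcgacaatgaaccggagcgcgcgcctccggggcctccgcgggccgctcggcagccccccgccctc
Each of these windows holds 4 matches, and 17.8% of 32851 RefSeq windows of the same 250 bases hold at least 1 on either strand. The matches do not separate Nr4a3 from its paralogs.

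Nr4a3 had 9.71, 14.2 and 15.8 FPKM in dLAM libraries 1, 2 and 3, against 2.18, 4.90 and 2.01 FPKM in Mono-MΦ libraries 1, 2 and 3. Every dLAM library was far above every Mono-MΦ library, and Mono-MΦ library 2 was the highest of its group. The log2 fold change was 1.87 (SE 0.29, limma adjusted p = 0.0024), a ratio of means of 4.37, and it passed in every alternative tried.

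Nr4a1 had 20.98, 33.5 and 52.5 FPKM in dLAM libraries and 43.3, 74.5 and 23.8 FPKM in Mono-MΦ libraries, a difference of -0.34 with a 95% interval of -1.37 to 0.69. Nr4a2 had 3.35, 6.14 and 9.29 FPKM in dLAM libraries and 3.13, 9.01 and 3.69 FPKM in Mono-MΦ libraries, a difference of 0.24 with an interval of -0.71 to 1.19. Both groups overlapped for both genes. The highest library exceeded the lowest by 2.5 times within dLAM and 3.12 times within Mono-MΦ for Nr4a1, and by 2.78 and 2.88 times for Nr4a2, and the intervals are accordingly wide.

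This spread followed other immediate early genes, the first to be transcribed after a stimulus. Of 15 such genes, 13 were lowest in dLAM library 1, 14 were highest in Mono-MΦ library 2 and 13 were lowest in Mono-MΦ library 3, which were also the lowest and highest libraries for Nr4a1. Nr4a2, however, was lowest in Mono-MΦ library 1 within its group. In dLAM library 3, where Nr4a1, Nr4a2 and Nr4a3 were highest, 9 of the 15 were highest too. Both dLAM library 3 and Mono-MΦ library 2 also stood apart in Y-linked RNA, as given above, and the part of this was not tested. Of the 15 genes 3 passed (20%), beside 30.5% of all genes. Egr2 rose by 1.30 and Jund by 0.82 on the log2 scale, and Fosl2 fell by 0.76, with a median of -0.10. Nr4a3 divided by Nr4a1 in the same library also separated the groups. That ratio was 0.463, 0.423 and 0.301 in dLAM libraries and 0.0504, 0.0658 and 0.0842 in Mono-MΦ libraries. Nr4a3 divided by Nr4a2 was 2.90, 2.31 and 1.70 in dLAM libraries and 0.695, 0.544 and 0.544 in Mono-MΦ libraries. Each of these ratios had an exact two-sided permutation p of 0.1, the smallest that 3 against 3 libraries allow, and 0.133 after adjustment over the 12 ratios computed.

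**Figure D3:**
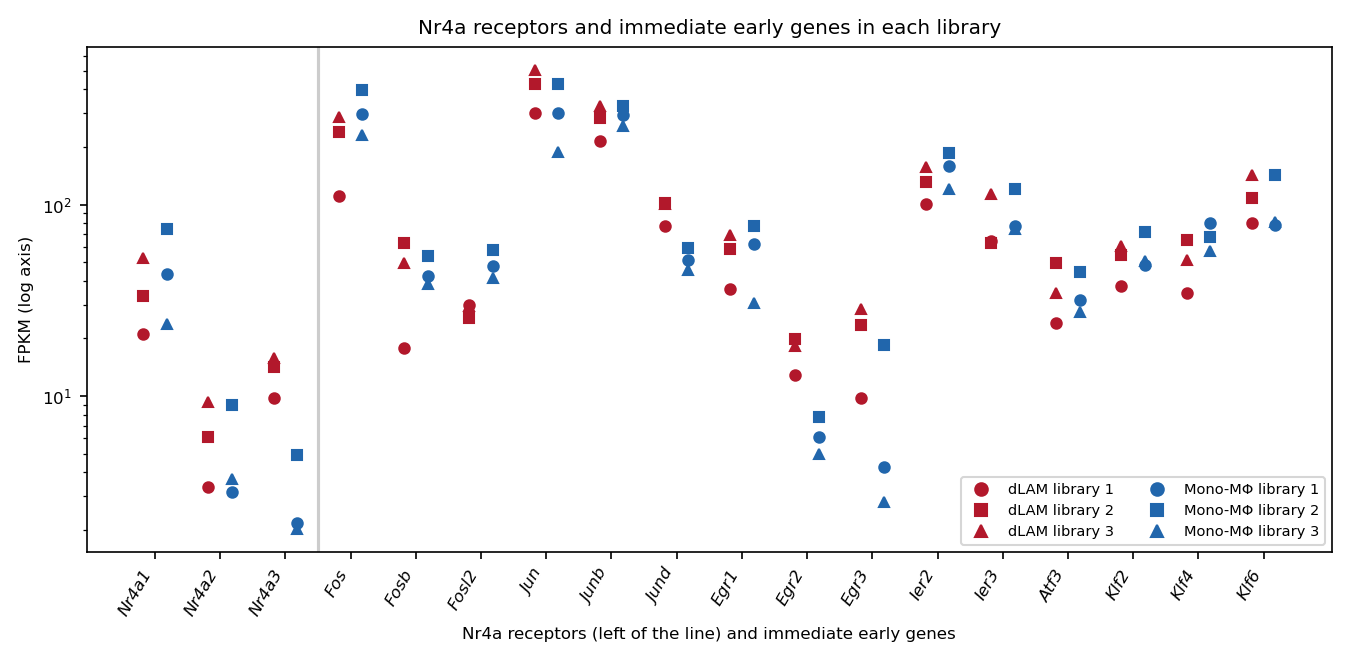
FPKM of Nr4a1, Nr4a2 and Nr4a3 beside other immediate early genes in each library, on a log axis. Nr4a3 is the receptor of the 3 whose dLAM libraries, 9.71 to 15.8 FPKM, all lie above the Mono-MΦ libraries, 2.01 to 4.90 FPKM.

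Receptors that pair with the retinoid X receptors sense sterols, fatty acids, retinoic acid, vitamin D and thyroid hormone. In this group Nr1h3, Pparg and Vdr rose, Rara fell, and the retinoid X receptors themselves did not pass. Nr1h3 (LXRα) had 1.23, 1.79 and 1.06 FPKM in dLAM libraries, against 0.578, 0.467 and 0.227 FPKM in Mono-MΦ libraries. All dLAM libraries were above all Mono-MΦ libraries, at levels near the filter, from an estimated 33.0 to 55.3 fragments in dLAM and 9.7 to 19.9 in Mono-MΦ. The log2 fold change was 0.72 (SE 0.17, limma adjusted p = 0.0155), and the adjusted p was 0.0525 without dLAM library 2 and 0.0853 after quantile normalization (0.49). Nr1h2 (LXRβ), the broadly expressed paralog, had 12.4 ± 1.22 FPKM in dLAM and 12 ± 0.494 FPKM in Mono-MΦ, a difference of 0.05 with an interval of -0.20 to 0.29. Nr1h3 reached 0.110, 0.140 and 0.0784 of the level of Nr1h2 in dLAM libraries, against 0.0502, 0.0389 and 0.0181 in Mono-MΦ libraries.

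Pparg, which directs lipid uptake and the maturation of some tissue macrophages such as those of lung alveoli, had 1.24, 1.27 and 1.17 FPKM in dLAM libraries. In Mono-MΦ libraries it had 0.335, 0.103 and 0.326 FPKM. The dLAM libraries were tightly grouped and all above the Mono-MΦ libraries, on an estimated 42.7 to 54.1 fragments in dLAM and 4.3 to 16.4 in Mono-MΦ. The log2 fold change was 0.83 (SE 0.13, limma adjusted p = 0.00298), for a gene that like Nr1h3 entered the test only through dLAM. Ppard, the more abundant PPAR of these cells, had 7.74 ± 0.471 FPKM in dLAM and 7.14 ± 1.55 FPKM in Mono-MΦ, with overlapping libraries and an interval of -0.25 to 0.49. Ppara, the PPAR best known from liver, was listed at 0 in 4 of 6 libraries and did not pass 0.0134 FPKM. Divided by Ppard, Pparg was 0.171, 0.156 and 0.148 in dLAM libraries and 0.0402, 0.0133 and 0.0605 in Mono-MΦ libraries.

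Vdr, the vitamin D receptor, had 9.94, 8.07 and 6.68 FPKM in dLAM libraries and 5.24, 4.70 and 3.84 FPKM in Mono-MΦ libraries. Groups did not overlap, and the log2 fold change was 0.71 (SE 0.16, limma adjusted p = 0.0144). Without dLAM library 1 the adjusted p was 0.0536, and without dLAM library 2 it was 0.0525.

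Of the retinoic acid receptors Rara fell and Rarg did not pass. Rara (RARα), among the most abundant receptors of both groups, had 25.1, 26.4 and 26.4 FPKM in dLAM libraries, against 54.1, 53.7 and 30.9 FPKM in Mono-MΦ libraries. The dLAM libraries were nearly equal, while Mono-MΦ library 3 lay far below the other Mono-MΦ libraries and close to dLAM. The log2 fold change was -0.77 (SE 0.21, limma adjusted p = 0.0276). The adjusted p was 0.0859, 0.0794 and 0.0707 without dLAM libraries 1, 2 and 3, 0.0726 and 0.0730 without Mono-MΦ libraries 1 and 2, 0.0616 after TPM scaling and 0.0600 with no filter. Rarg (RARγ) had 7.37, 10.9 and 6.89 FPKM in dLAM libraries and 15.2, 11.2 and 10.1 FPKM in Mono-MΦ libraries. It did not pass (log2 fold change -0.49, SE 0.20, limma adjusted p = 0.105), but did without dLAM library 2, with an adjusted p of 0.0469.

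The common partners did not differ beyond the spread between libraries. Rxra had 6.77 ± 0.339 FPKM in dLAM and 6.93 ± 1.13 FPKM in Mono-MΦ, with an interval of -0.32 to 0.28, and Rxrb had 4.95 ± 0.252 FPKM in dLAM and 5.04 ± 0.511 FPKM in Mono-MΦ, with an interval of -0.29 to 0.25. The share of Rxrb against Rxra was likewise alike, 0.679 to 0.796 in dLAM and 0.670 to 0.786 in Mono-MΦ. Thra, a thyroid hormone receptor, had 4.30 ± 0.559 FPKM in dLAM and 5.04 ± 0.977 FPKM in Mono-MΦ, with an interval of -0.54 to 0.18. Thrb did not pass 0.0703 FPKM in any library. Exons of Thra and Nr1d1 share 263 bases on opposite strands in GENCODE M21. No source used here says whether reads were counted by strand, so the levels of both are uncertain.

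Nr1d1 and Nr1d2 (REV-ERBα and REV-ERBβ) are heme-binding repressors of the circadian clock that recruit Ncor1, and Rora activates through the same DNA elements. Nr1d2 had 3.41, 4.37 and 4.04 FPKM in dLAM libraries and 2.73, 1.58 and 1.47 FPKM in Mono-MΦ libraries. All dLAM libraries were above, with Mono-MΦ library 1 nearest to them. Its log2 fold change was 0.78 (SE 0.18, limma adjusted p = 0.0166), and the adjusted p was 0.0689 without dLAM library 2, 0.0553 without dLAM library 3 and 0.0526 after quantile normalization. Nr1d1 had 1.06, 1.83 and 1.33 FPKM in dLAM libraries and 1.52, 1.85 and 0.369 FPKM in Mono-MΦ libraries. Its libraries overlapped, with Mono-MΦ library 3 far below the others, and its interval ran from -0.50 to 0.82. Rora had 0.686, 0.667 and 1.74 FPKM in dLAM libraries and 0.250, 0.378 and 0.893 FPKM in Mono-MΦ libraries and was under the filter.

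Among steroid-type receptors, Nr3c1, the glucocorticoid receptor, did not pass, with 9.46 ± 0.574 FPKM in dLAM and 10.1 ± 0.632 FPKM in Mono-MΦ, with an interval of -0.32 to 0.15. Esrra, which drives mitochondrial genes, had 3.86 ± 0.0857 FPKM in dLAM and 3.69 ± 0.686 FPKM in Mono-MΦ, with an interval of -0.26 to 0.38. Esr1, the estrogen receptor alpha, was below the filter at 0.495 ± 0.0315 FPKM in dLAM and 0.446 ± 0.0276 FPKM in Mono-MΦ.

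The remaining orphan receptors did not pass or were not tested. Nr2f6 had 1.57, 1.49 and 1.64 FPKM in dLAM libraries, all above the 1.21, 1.12 and 0.821 FPKM of Mono-MΦ libraries (log2 fold change 0.33, SE 0.13, limma adjusted p = 0.0969). Nr2c2 had 5.84, 6.58 and 5.43 FPKM in dLAM libraries, all below the 6.59, 7.05 and 8.17 FPKM of Mono-MΦ libraries, although dLAM library 2 and Mono-MΦ library 1 were nearly equal (-0.25, SE 0.12, limma adjusted p = 0.169). Nr2c1 had 2.32 ± 0.306 FPKM in dLAM and 2.14 ± 0.167 FPKM in Mono-MΦ, with overlapping libraries. Nr6a1 was at most 0.340 FPKM in dLAM and 0.205 FPKM in Mono-MΦ and was not tested. Nr2f6 shares 1622 exon bases with Ocel1 and Nr2c2 4590 with Mrps25 on the opposite strand, so their levels are uncertain as well.

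The p160 coactivators Ncoa1, Ncoa2 and Ncoa3 bind liganded receptors and bring in histone acetyltransferases, and here Ncoa3 rose and Ncoa1 fell. Ncoa1 had 16.1, 17.0 and 20.4 FPKM in dLAM libraries, against 27.4, 26.8 and 23.9 FPKM in Mono-MΦ libraries. All dLAM libraries were below all Mono-MΦ libraries (log2 fold change -0.52, SE 0.12, limma adjusted p = 0.0126). Ncoa3 had 43.4, 53.3 and 43.8 FPKM in dLAM libraries, against 37.5, 30.9 and 35.8 FPKM in Mono-MΦ libraries. It was higher in every dLAM library (log2 fold change 0.42, SE 0.12, limma adjusted p = 0.0358). Ncoa2 did not pass, with 7.72 ± 0.485 FPKM in dLAM and 6.84 ± 0.679 FPKM in Mono-MΦ and an interval of -0.11 to 0.42. Within libraries, Ncoa3 divided by Ncoa1 was 2.70, 3.13 and 2.15 in dLAM and 1.37, 1.16 and 1.5 in Mono-MΦ, and Ncoa2 divided by Ncoa1 was 0.447, 0.463 and 0.397 in dLAM and 0.257, 0.227 and 0.310 in Mono-MΦ. Ncoa3 divided by Ncoa1 had to separate the groups, since Ncoa3 was above and Ncoa1 below in every dLAM library. It thus adds nothing to the single genes. Ncoa2 divided by Ncoa1 separated the groups as well. Each ratio had an exact permutation p of 0.1, and 0.133 after adjustment. The call for Ncoa1 was lost without dLAM library 1 (adjusted p = 0.0512) and library 2 (0.0528). That for Ncoa3 was lost without dLAM libraries 1, 2 and 3 (0.0615, 0.118 and 0.0644), without Mono-MΦ libraries 2 and 3 (0.0908 and 0.0622), after median-of-ratios scaling (0.131) and with no filter (0.0552).

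**Figure D4:**
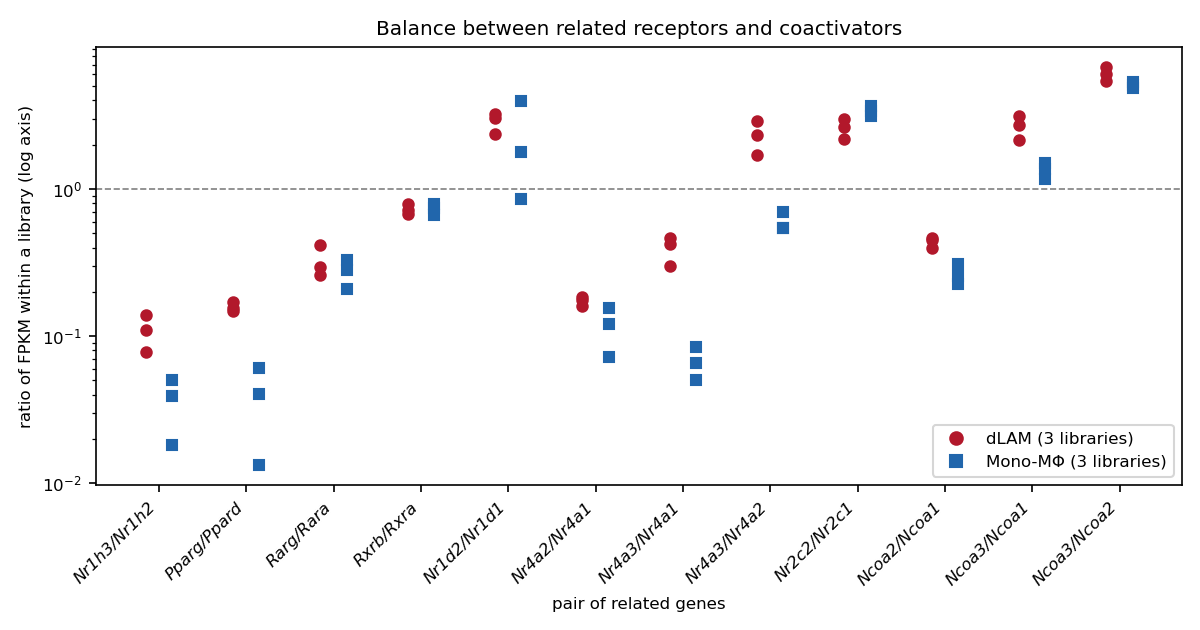
Ratio of the FPKM of paralogs within each library, on a log axis, with dLAM points left of Mono-MΦ points in each pair. Of 12 ratios 9 do not overlap between the groups, and Rarg to Rara, Rxrb to Rxra and Nr1d2 to Nr1d1 do. Several ratios share a gene, and no share over other gene pairs was computed, so the count is no result about the set. Single genes were apart in this way for 46.2% of all genes tested. Each of the 9 had an exact permutation p of 0.1, and 0.133 after adjustment.

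Nrip1 (RIP140), a corepressor that binds liganded receptors and also serves inflammatory and metabolic gene programs, was among the most stable changes. It had 6.62, 8.09 and 7.38 FPKM in dLAM libraries and 3.38, 3.45 and 3.63 FPKM in Mono-MΦ libraries. Libraries agreed closely within each group and did not overlap between groups, and the log2 fold change was 0.90 (SE 0.11, limma adjusted p = 0.00102), a ratio of means of 2.11 that passed in every alternative tried. Ncor1, the corepressor of unliganded receptors, had 25.4 ± 0.925 FPKM in dLAM and 28.3 ± 0.194 FPKM in Mono-MΦ. All its dLAM libraries were below all Mono-MΦ libraries, but the difference did not pass (-0.15, SE 0.08, limma adjusted p = 0.217).

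Ncoa5 can act as coactivator and corepressor. It had 7.51, 7.41 and 5.86 FPKM in dLAM libraries and 4.66, 5.08 and 4.53 FPKM in Mono-MΦ libraries (log2 fold change 0.46, SE 0.13, limma adjusted p = 0.0295). Its groups did not overlap, but the adjusted p was 0.111 and 0.113 without dLAM libraries 1 and 2, 0.0657 and 0.0698 without Mono-MΦ libraries 1 and 3, 0.0791 after median-of-ratios scaling and 0.0892 after quantile normalization. Ncoa4, which is best known for delivering ferritin to the lysosome, had 4.10, 3.68 and 3.22 FPKM in dLAM libraries and 3.40, 1.498 and 1.58 FPKM in Mono-MΦ libraries. Mono-MΦ library 1 lay within the dLAM range, and the difference of 0.61 (SE 0.23) did not pass (limma adjusted p = 0.0845), but did without that library, with an adjusted p of 0.00571. Ncoa6 had 12.2 ± 0.680 FPKM in dLAM and 12.8 ± 0.515 FPKM in Mono-MΦ, and Ncoa7 15.6 ± 2.004 FPKM in dLAM and 13.1 ± 2.33 FPKM in Mono-MΦ. Both overlapped between the groups, with intervals of -0.28 to 0.16 for Ncoa6 and -0.12 to 0.59 for Ncoa7.

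Genes around these receptors were described from lists of ligand enzymes, targets and partners, with the same test. The lists were chosen with earlier results of these data known. Each count below stands against the 30.5% of all genes that passed, 19.9% higher and 10.6% lower, and where genes entered the test only through dLAM libraries the count without them is given too. That background still holds genes that entered through a single group, so it is an unlike set for the counts without them. Of 13 liver X receptor targets 7 rose and 1 fell (61.5%), with a median of 0.76 beside 0.06 for all genes. Scd1 was tested only through dLAM, and without it 6 of 12 rose and 1 fell, with a median of 0.67. The phospholipid transfer protein Pltp had 34.2, 35.7 and 27.5 FPKM in dLAM libraries and 3.38, 1.59 and 1.47 FPKM in Mono-MΦ libraries, a log2 fold change of 3.45 (SE 0.23). Apoe, the apolipoprotein that carries exported lipid, rose by 2.12 (SE 0.26), the fatty acid enzymes Scd1 by 1.86 and Fasn by 1.24, and the cholesterol exporter Abca1 by 1.0 (SE 0.22). Smpdl3a, a phosphodiesterase, fell by 1.75. The exporter Abcg1, counted among the 7, was at the threshold (0.39, limma adjusted p = 0.0497) and passed in 2 of 10 alternatives. In the other alternatives its adjusted p was 0.0514 to 0.176, the highest after median-of-ratios scaling (0.28 on the log2 scale), and it was 0.134 and 0.166 without dLAM libraries 1 and 2 and 0.0929 and 0.125 without Mono-MΦ libraries 2 and 3. Without dLAM library 1 the adjusted p of Abca1 was 0.0503. Srebf1 and Mylip, other direct targets, did not pass, at 0.20 (SE 0.15) and 0.58 (SE 0.30).

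Of 5 tested enzymes that make or remove oxysterols, 3 rose and 1 fell, but Ch25h and Cyp7b1 were tested only through dLAM, and of the other 3 genes 1 rose and 1 fell. That rise was Hsd3b7 (0.47, SE 0.13, limma adjusted p = 0.0302). It passed in 4 of 9 alternatives and in 1 of 6 fits without 1 library. Ch25h, which makes 25-hydroxycholesterol, had 4.56, 3.61 and 3.40 FPKM in dLAM libraries and was listed at 0 in Mono-MΦ libraries 1 and 2 and at 0.0871 FPKM in library 3. Cyp7b1, which breaks oxysterols down, had 1.90 ± 0.356 FPKM in dLAM and 0.442 ± 0.0174 FPKM in Mono-MΦ. Soat1, which esterifies cholesterol for storage, fell by 0.72 (SE 0.12). Of 9 tested PPAR targets 2 rose and 3 fell (55.6%), with a median of 0.15. Cd36 was tested only through dLAM, and without it 1 of 8 rose and 3 fell, with a median of 0.06. The fatty acid carriers Cd36 (1.52, SE 0.21) and Fabp5 (1.05, SE 0.21) rose, while Cpt1a, the gate to mitochondrial fatty acid oxidation, fell by 1.10 and the lipid droplet protein Plin2 by 0.74. Fabp4 and Angptl4 were below the filter.

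Of 6 tested genes of retinoid handling 2 rose (33.3%), and 1 of 5 without Aldh1a2, which was tested only through dLAM. Aldh1a2, which makes retinoic acid, had 4.69, 4.88 and 4.23 FPKM in dLAM libraries and 0.129, 0.0314 and 0.260 FPKM in Mono-MΦ libraries, with no overlap (log2 fold change 2.30, SE 0.13). Dhrs3, a retinaldehyde reductase, rose by 1.36. Some dendritic cells also express Aldh1a2, and dendritic cell markers were higher in dLAM as given above. Their part in this result was not tested. Of the genes for vitamin D and thyroid hormone enzymes and carriers 1 of 8 was tested, the carrier Slc16a10, which fell by 0.89.

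Of 14 glucocorticoid targets and enzymes 1 rose and 2 fell (21.4%), with a median of -0.09. Anxa1 fell by 1.68 (SE 0.31), as did Hsd11b1, which regenerates active glucocorticoid, by 1.34 (SE 0.25), and the chaperone Hsp90ab1 rose by 0.96. The classical targets Fkbp5 and Tsc22d3 did not pass, at -0.45 (SE 0.26) and -0.16 (SE 0.15). Anxa1 is also abundant in neutrophils, whose summed markers were lower in dLAM, and their part was not tested.

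Of 12 tested clock genes 3 rose and 2 fell (41.7%), with a median of 0.15. Bhlhe41 and Dbp were tested only through dLAM, and without them 1 of 10 rose and 2 fell (30%), with a median of -0.01. The repressors Bhlhe41 and Bhlhe40 rose by 1.71 and 1.49, while Cry1 fell by 0.85 and Nfil3 by 0.63. Dbp passed narrowly (0.45, limma adjusted p = 0.0469), with an adjusted p of 0.0546 to 0.125 when any 1 library was left out. After quantile normalization Dbp was at 0.20 (adjusted p = 0.373), and it was also lost after median-of-ratios scaling (0.0862), with no filter (0.0851) and with a pseudocount of 0.1 (0.0607). Nfil3 had 0.0619 without dLAM library 2. Arntl, the activator of Nr1d1 and Nr1d2, did not pass (0.30, SE 0.11), nor did Per1 (-0.02, SE 0.14).

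Of 18 tested other coregulators 4 rose and none fell (22.2%), with a median of 0.19. Ppargc1b, a coactivator of Esrra and of mitochondrial genes, had 2.83, 6.06 and 4.80 FPKM in dLAM libraries and 1.59, 1.61 and 1.03 FPKM in Mono-MΦ libraries (log2 fold change 1.17, SE 0.24). Its relative Pprc1 rose by 0.80, and the arginine methyltransferases Prmt1 and Carm1 by 0.73 and 0.54. Prmt1 kept its call only without dLAM library 2 among the fits that left out 1 library, with adjusted p up to 0.123 otherwise, and was lost after median-of-ratios scaling (0.0639), quantile normalization (0.0886) and with no filter (0.0933), and Carm1 had 0.0592 and 0.0519 without dLAM libraries 2 and 3. In the ferritin and iron list 2 of 6 rose (33.3%), Hmox1 by 0.85 and Slc11a2 by 0.61, the second lost after quantile normalization (adjusted p = 0.0708). Hmox1 had an adjusted p of 0.0590 without dLAM library 1 and 0.0504 without Mono-MΦ library 3. Fth1, the cargo that Ncoa4 binds, had 2430 ± 498 FPKM in dLAM and 1242 ± 601 FPKM in Mono-MΦ and did not pass (1.07, SE 0.38).

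**Figure D5:**
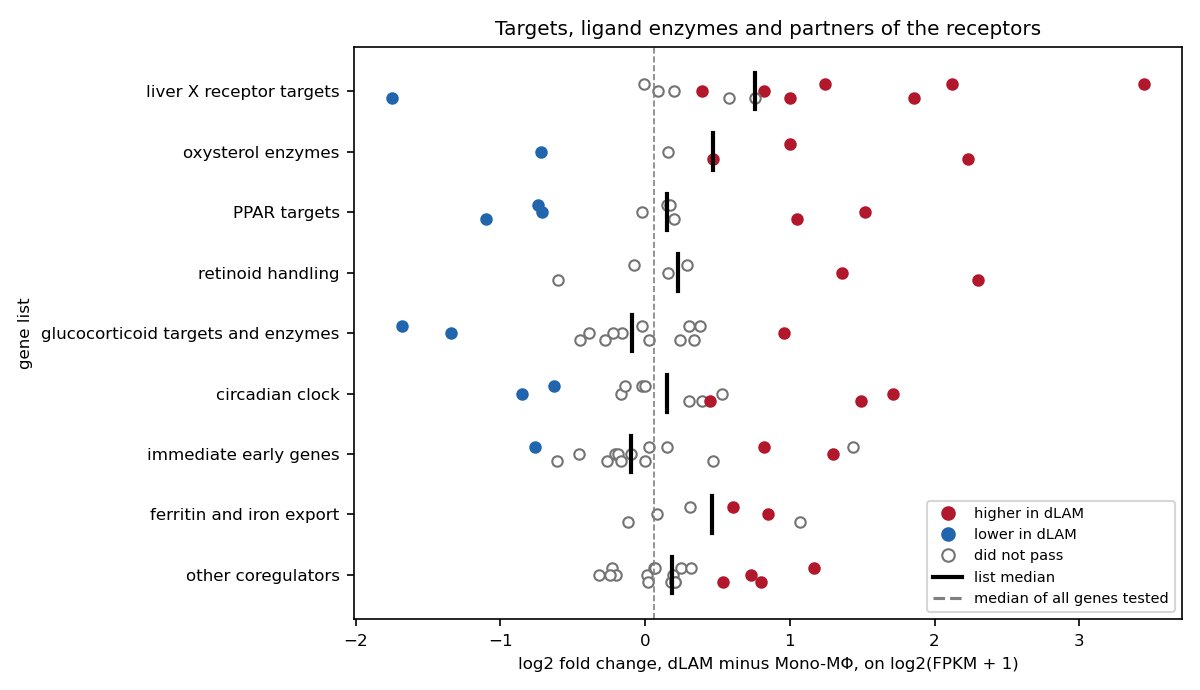
Log2 fold change, dLAM minus Mono-MΦ on log2(FPKM + 1), of each tested gene in the lists around the receptors, with filled points for genes that passed at an adjusted p under 0.05 and a bar at each median. Liver X receptor targets lie mostly right of 0, with Pltp at 3.45, and the median over all genes tested is 0.06.

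The remaining 24 nuclear receptors of the mouse in the table were all below 1 FPKM in every library, and none was tested. Their sum was 1.29 to 1.92 FPKM in dLAM libraries and 0.0939 to 0.113 FPKM in Mono-MΦ libraries. The dLAM libraries were above for 6 of the 24 and below for none. Of the 24, 14 were listed at 0 in every Mono-MΦ library, so dLAM could not lie below for them. Of all genes tested 29.3% lay above. Those genes passed the filter and none of the 24 did, so the shares are of unlike sets. The count is thus no result about these receptors.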

How the data were processed

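RNA of sorted CSF macrophages was measured by bulk sequencing in 6 libraries, 3 dLAM and 3 Mono-MΦ, grouped by their titles. Values were deposited by the authors as FPKM in a table of 34652 genes. Per the submitters' processing notes the authors used FastQC, HISAT2 and featureCounts with build mm10. Settings, annotation, gene lengths and strand handling were not given in the sources used here. Depth was estimated from the smallest steps of the values with exon lengths of GENCODE M21, to which 94.3% of symbols matched. Counts were not recovered, since 40.6% to 44.6% of values under 20 reads came out whole within 0.02 reads. Genes with at least 1 FPKM in at least 3 libraries (11317) were fitted in limma 3.58.1 (R 4.3.3) on log2(FPKM + 1), with a group term and a mean-variance trend, and adjusted by Benjamini-Hochberg, with 0.05 as the threshold. Log2 fold changes on this scale understate those of low genes. The code was tested on simulated data. Ratios of paralogs were compared by exact permutation over libraries. Libraries correlated at 0.985 to 0.990 within and 0.952 to 0.964 between groups, and no pair held identical values. Since no label ties libraries to separate mice, p-values cover the spread between these libraries alone, which may be technical. The genes and lists were chosen with earlier results of these data known. Named were all 34 genes, of each list up to 4 genes per direction with the largest changes that passed, and textbook targets or partners with their values whether they passed or not. Some of the genes this rule names are not reported here. Alternatives were another pseudocount, filters, scalings, no trend, a replicate block, a term for sex-linked RNA, leaving out each library, and, chosen after seeing the data, the 4 libraries with less Y-linked RNA. Of 34 genes 30 had a RefSeq promoter window (GRCm38.p6, 250 bases before to 50 after the start). Python 3.11.15, numpy 2.4.6, pandas 2.3.3, scipy 1.17.1 and matplotlib 3.10.9 were used.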

Additional observations from a re-analysis of the deposited data

How the results depend on the processing

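Calls for Nr4a3 and Nrip1 passed in all 10 alternatives and in all 6 fits without 1 library. Pparg, which entered the test only through dLAM libraries, passed in the 9 alternatives in which it was tested and in all 6 of these fits. Over all genes, 1247 were higher with a filter of 5 FPKM, which left 6579 genes to test instead of 11317. In the 4 libraries with less Y-linked RNA, an alternative added after seeing the data, 1480 were higher and 780 lower. Without 1 library the higher count lay between 1590 and 2096 and the lower count between 780 and 1220. Of the 34 genes, 5 were higher with a filter of 5 FPKM, after quantile normalization and in the 4 libraries, and 1 was lower with no filter, after TPM scaling and in the 4 libraries. At 5 FPKM Nr1h3, Pparg and Nr1d2 were under the filter and not tested, and the other calls held. Without 1 library these counts lay between 3 and 8 and between 0 and 2. Genes called in a list came to 1 for other coregulators (filter of 5 FPKM and the 4 libraries; 2 to 3 without 1 library), 1 for oxysterol enzymes (5 FPKM; 3 to 4), 2 for PPAR targets (the 4 libraries; 5 in each), and 4 with no filter and 1 at 5 FPKM for retinoid handling (2 to 3). They came to 2 for vitamin D and thyroid genes (no filter; 1 in each), 3 for clock genes (5 FPKM, the replicate block and the 4 libraries; 3 to 4) and 1 for ferritin and iron (5 FPKM, quantile normalization and the 4 libraries; 1 to 3). Over all alternatives and fits without 1 library, the count was 6 to 9 for liver X receptor targets, 2 to 4 for glucocorticoid genes and 3 to 4 for immediate early genes. Signs turned only for genes that had not passed. After median-of-ratios scaling, quantile normalization and in the 4 libraries, Nr1h2 was -0.06, -0.01 and -0.01 and Esrra -0.03, -0.08 and -0.04. Nr2c1 was -0.0014 after median-of-ratios scaling and -0.12 after quantile normalization, where Nr1d1 was -0.08. After TPM scaling Rxra and Rxrb were 0.02 each, and Rxrb was 0.02 in the 4 libraries. Without 1 library the log2 fold change lay between -0.01 and 0.12 for Nr1h2, -0.04 and 0.23 for Ppard, -0.10 and 0.09 for Rxra, -0.09 and 0.03 for Rxrb, -0.17 and 0.36 for Nr1d1, -0.02 and 0.17 for Esrra, -0.75 and 0.05 for Nr4a1 and -0.06 and 0.63 for Nr4a2. Deviations from the group mean correlated at 0.19, -0.15 and -0.09 between same-numbered libraries. The highest correlation between the groups was 0.39, for dLAM library 3 with Mono-MΦ library 2. With 3 libraries per group these values cannot show whether libraries were paired. With the replicate block 2859 genes passed, against 3453 without it, 6 of the 34 genes were higher and 2 lower, and Ncoa5 (adjusted p = 0.0502) and Ncoa3 (0.0964) were lost. Genes called in the lists that were missing from the counts at 5 FPKM were under that filter too. The cause of the other changes was not tested.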
